A study of Mus musculus with 14 samples.

Results

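The 2 hematopoietic stem cell samples of a mouse expression study, 1 wild type and 1 Rheb1-/-, were compared with its 6 myeloid progenitor samples, 3 of each genotype. These 8 samples, taken by their labelled cell type from 14 in the series, were each hybridised to 1 Agilent array. Rheb1-/- cells came from Vav1-cre; Rheb1fl/fl mice, in which Vav1-cre, active in blood cells, recombines the floxed Rheb1 alleles, and the controls were labelled wild type. The labels name no sort gate for either cell type, no age and no animal behind a sample, so that p-values measure only the spread among these samples. Each genotype's difference rests on 1 stem cell array against 3 progenitor arrays and is given as a value. The test was made over both genotypes, with genotype as a covariate, and a gene was called higher or lower only where its adjusted p was under 0.05 and the differences of both genotypes had the same sign.

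Hematopoietic stem cells sit at the top of blood formation, divide rarely and keep the capacity to renew themselves. Myeloid progenitors have lost that capacity, divide fast and load the granule proteins that their granulocyte and monocyte descendants carry. Stem cells are known for transcription factors of the Hox, Meis and Gata families, for receptors such as Tek, and for low-level transcription of genes of several blood lineages. Rheb is the small GTPase that activates mTORC1, a kinase complex that drives growth and protein synthesis.

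All values are log2 processed signals minus the array's 75th percentile, so that 0 marks the 75th percentile of that array, and differences are stem cells minus progenitors. The labels were first set against the cell types' markers. Ly6a, the Sca-1 antigen of stem cells, read 2.85 on the wild-type and 2.38 on the Rheb1-/- stem cell array against 1.31 to 1.89 (median 1.58) on the progenitor arrays, 2.02-fold higher in stem cells (log2 1.02 ± 0.11 SE, limma adjusted p = 0.000398). Cd34, the sialomucin of stem and progenitor cells, read 6.49 on the wild-type and 6.83 on the Rheb1-/- stem cell array against 5.16 to 5.97 (median 5.50) on the progenitor arrays, 2.21-fold higher in stem cells (log2 1.15 ± 0.20 SE, limma adjusted p = 0.00255). For Kit, the stem cell factor receptor, the wild-type and Rheb1-/- stem cell arrays gave 2.82 and 3.41 and the progenitor arrays 2.66 to 3.04 (median 2.88), a difference of 0.25 ± 0.11 SE that did not pass (limma adjusted p = 0.0911). Kit did pass as higher in 5 of 25 alternative analyses, among them quantile normalization (0.57, limma adjusted p = 0.00771). Thus Ly6a and Cd34 were higher on both stem cell arrays than on all 6 progenitor arrays, whereas Kit overlapped. Of 12 stem cell markers, 10 were higher in stem cells and Kit and Mecom did not pass. Of 11 measured markers of granulocyte and monocyte progenitors, 7 were lower in stem cells, 1 (Cd34) was higher and Kit, Csf1r and Csf3r did not pass. Among all genes tested 22.4% were higher and 33.5% lower. Fgd5 was not well above background on any progenitor array, entered the test only through its stem cell signal and had to differ. The calls of Slamf1 and Tek were lost in 12 of 24 and 5 of 25 alternative analyses. Rheb read 3.46 on the wild-type and 2.26 on the Rheb1-/- stem cell array, 3.94, 4.04 and 3.78 on wild-type and 3.26, 2.65 and 2.60 on Rheb1-/- progenitor arrays. Each Rheb1-/- array was thus below every wild-type array of its cell type. Rheb was 1.43-fold lower in stem cells (log2 -0.52 ± 0.19 SE, limma adjusted p = 0.0491), a call lost in 19 of 25 alternative analyses (limma adjusted p 0.0169 to 1).

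Between 58.5% and 67.6% of the spots of an array were well above background and none was saturated, and the small number of arrays limits the precision. Across genes the stem cell arrays correlated with each other at 0.963, the progenitor arrays at 0.986 to 0.992 and stem cell with progenitor arrays at 0.898 to 0.942. The wild-type stem cell array shared slide 2 with wild-type progenitor array 1, scanned on another day than the other slides, and their difference is the only one within a slide. The Rheb1-/- stem cell array shared no slide with a progenitor, so that slide and cell type cannot be told apart there. In these bulk samples, fewer cells of a type and less RNA per cell cannot be told apart.

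The stem cell samples also differed from each other in genes of mature cells. On the wild-type stem cell array the summed signal of 28 monocyte and macrophage genes was 697 times the array's 75th percentile, on the Rheb1-/- stem cell array 114 and on the progenitor arrays 194 to 255. The 13 immunoglobulin variable genes that were tested summed to 163, 8.62 and 0.666 to 1.41 in the same order. Erythroid genes summed to 309, 89.0 and 59.2 to 107.4. In these 3 lists the wild-type stem cell array lay above all other arrays of the comparison. The eosinophil, basophil and mast cell list summed to 326 on the wild-type and 41.8 on the Rheb1-/- stem cell array, both below the progenitors' 641 to 1478. The part of such cells in the results was not tested. List counts are therefore also given with each stem cell array left out. The lone stem cell array is then assumed to vary like the other arrays.

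**Figure D1:**
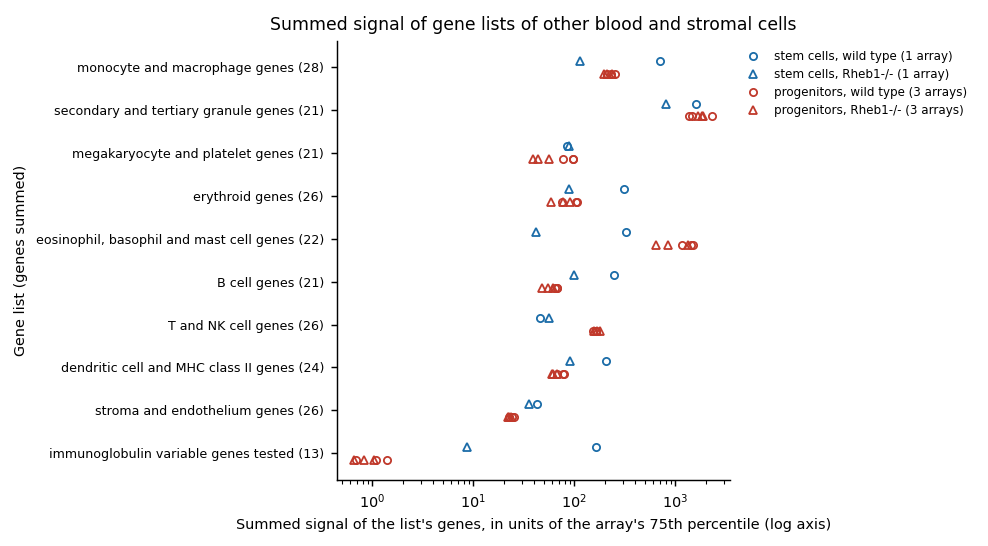
Summed signal of each list of mature-cell genes on the 2 stem cell and 6 progenitor arrays, in units of the array's 75th percentile on a log axis, 1 point per array. The wild-type stem cell array stands to the right of the Rheb1-/- stem cell array for macrophage, erythroid, eosinophil, B cell and immunoglobulin genes.

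Stem cells and progenitors differed in a large share of the genes measured. Of 16921 genes tested, 9448 (55.8%) were called by limma, 3784 (22.4%) higher and 5664 (33.5%) lower in stem cells, and 10333 had an unadjusted p under 0.05. By 2-fold or more, 2380 genes were higher and 1222 lower, and by 4-fold or more 1265 were higher and 284 lower. Thus lower genes were more numerous, and among differences of 2-fold or more higher ones were. Among genes well above background on all 8 arrays, 1394 were higher and 1092 lower by 2-fold or more. Both stem cell arrays lay above all 6 progenitor arrays in 3776 genes (22.3%) and below them in 5806 (34.3%). With slide as a fixed block 4343 genes were called (2 residual degrees of freedom in place of 5), and without the wild-type or the Rheb1-/- stem cell array 8001 and 7997. With normexp background correction, 1319 genes were higher and 869 lower by 2-fold or more. On the stem cell arrays 48 of the lower genes, and on the progenitor arrays 322 of the higher genes, were not well above background, so that only a bound can be given for them.

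The differences of the genotypes, which share no array, had the same sign in 13629 of the 16921 genes (80.5%) and correlated across genes at r = 0.808 (rho = 0.794), a description since genes are not independent. In 2882 genes the difference exceeded 1 in both genotypes with the same sign, and in 31 with opposite signs. Whether the genotypes differed in a gene was not tested. In 1318 genes (7.79%) the stem cell array lay beyond all 3 progenitor arrays of its genotype in opposite directions. The median difference of all genes tested was -0.12 (-0.21 in wild type and -0.048 in Rheb1-/- cells), the level against which list medians are to be read.

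**Figure D2:**
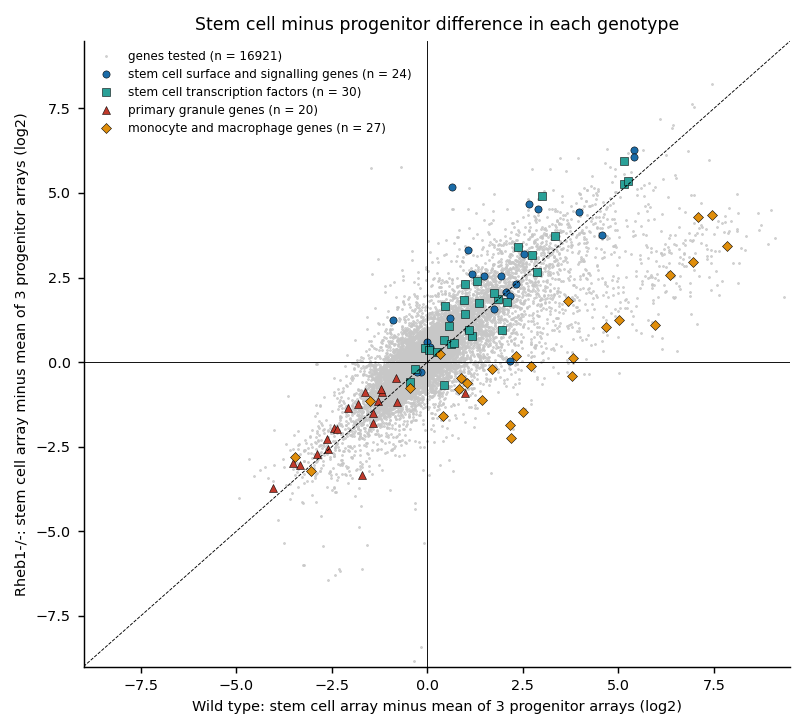
Stem cell minus progenitor difference of each gene in wild type (horizontal) and in Rheb1-/- cells (vertical), on the log2 scale, with 4 gene lists marked and the line of equal differences dashed. Stem cell lists lie at the upper right and primary granule genes at the lower left, whereas monocyte and macrophage genes lie below the line, with medians of 2.32 and -0.22.

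Surface and signalling genes of stem cells were higher in both stem cell samples. In this list 17 of 24 tested members (25 listed) were higher and 0 lower in stem cells (median difference 2.06). There were 19 higher and 0 lower without the wild-type stem cell array, and 16 and 0 without the Rheb1-/- array. Among members well above background on all 8 arrays, 14 of 20 were higher and 0 lower, and with normexp the list median was 1.37. A gene that is dim in progenitors entered the test only through its stem cell signal and had to differ, so that counts of such genes carry no support of their own. Procr, the endothelial protein C receptor used to isolate stem cells, read 1.11 on the wild-type and 1.50 on the Rheb1-/- stem cell array against -3.07 to -2.72 (median -2.91) on the progenitor arrays, 18.4-fold higher in stem cells (log2 4.21 ± 0.15 SE, limma adjusted p = 2.11e-05). For Fgd5, a guanine nucleotide exchange factor that marks stem cells, the wild-type and Rheb1-/- stem cell arrays gave -2.35 and -1.88 and the progenitor arrays -8.36 to -7.36 (median -8.06), at least 15.3-fold higher in stem cells (fitted log2 5.85 ± 0.29 SE, limma adjusted p = 3.28e-05). The signal of Robo4, a roundabout receptor of stem cells and endothelium, was 2.39 and 2.42 on the wild-type and Rheb1-/- stem cell arrays and -4.29 to -2.62 (median -3.33) on the progenitor arrays, 53.3-fold higher in stem cells (log2 5.74 ± 0.36 SE, limma adjusted p = 6.51e-05). For these 3 genes both stem cell arrays were above every progenitor array, with little difference between the stem cell arrays. The bound for Fgd5 sets the stem cell mean against, per progenitor array, the higher of its own signal and the lowest signal well above background. With normexp background correction the bound does not hold: all 9 genes with a bound among those chosen by the naming rule then had smaller differences than it, Fgd5 1.71 against a log2 bound of 3.94. Folds given as at least a value are thus bounds under the main processing only. The probes lie, in mm9, at chr2:155580945-155581004, chr6:92025710-92025769 and chr9:37221537-37221596. The sources used here do not place them in exons or UTRs.

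Receptors and ligands of the niche were among these genes. Tek, the Tie2 receptor, read -3.12 on the wild-type and -2.25 on the Rheb1-/- stem cell array against -5.62 to -3.82 (median -4.67) on the progenitor arrays, 4.05-fold higher in stem cells (log2 2.02 ± 0.46 SE, limma adjusted p = 0.00898). The signal of Angpt1, the angiopoietin that binds Tek, was -0.32 and 0.015 on the wild-type and Rheb1-/- stem cell arrays and -3.44 to -2.58 (median -2.98) on the progenitor arrays, 7.25-fold higher in stem cells (log2 2.86 ± 0.21 SE, limma adjusted p = 0.000106). Receptor and ligand were thus both higher in the stem cell samples, with no overlap between the groups for either. The call of Tek was lost in 5 of 25 alternatives. Slamf1, the CD150 antigen of long-lived stem cells, read -2.95 on the wild-type and -2.05 on the Rheb1-/- stem cell array against -6.23 to -3.53 (median -4.69) on the progenitor arrays, higher in stem cells (log2 2.19 ± 0.67 SE, limma adjusted p = 0.0279, well above background on 5 of 6 progenitor arrays; 0.90 with normexp). Its call was lost in 12 of 24 alternatives. Esam, an adhesion molecule of endothelium and stem cells, was higher by 3.67, the receptor kinase Tie1 by 1.89, the adhesion receptor Adgrg1 by 2.23 and the transglutaminase Tgm2 by 4.17. The transporter Abcg2 (0.30), the tetraspanin Cd9 (-0.23) and the phosphatase Ptprz1 (-0.28) did not pass. Vwf, the von Willebrand factor, differed by -0.91 in wild type and 1.23 in Rheb1-/- cells and did not pass either.

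Transcription factors of stem cells showed the same direction. In this list 24 of 30 tested members were higher and 2 lower in stem cells (median difference 1.43). There were 21 higher and 2 lower without the wild-type stem cell array, and 20 and 0 without the Rheb1-/- array. Among members well above background on all 8 arrays, 20 of 25 were higher and 2 lower. The signal of Hlf, a basic leucine zipper factor of stem cells, was 2.95 and 3.21 on the wild-type and Rheb1-/- stem cell arrays and -0.61 to -0.33 (median -0.45) on the progenitor arrays, 11.6-fold higher in stem cells (log2 3.54 ± 0.11 SE, limma adjusted p = 2e-05). Nkx2-3, a homeobox factor, read 0.87 on the wild-type and 1.64 on the Rheb1-/- stem cell array against -4.72 to -3.99 (median -4.23) on the progenitor arrays, 46.8-fold higher in stem cells (log2 5.55 ± 0.24 SE, limma adjusted p = 2.66e-05). For Hmga2, a chromatin protein of fetal and self-renewing cells, the wild-type and Rheb1-/- stem cell arrays gave 0.36 and 0.00016 and the progenitor arrays -2.81 to -2.26 (median -2.61), 6.78-fold higher in stem cells (log2 2.76 ± 0.14 SE, limma adjusted p = 3.49e-05). Both stem cell arrays were above all progenitor arrays for the 3 genes, and the stem cell arrays lay closer to each other than to any progenitor array. Meis1, a cofactor of Hox proteins, read 0.19 on the wild-type and 0.66 on the Rheb1-/- stem cell array against -2.90 to -1.85 (median -2.65) on the progenitor arrays, 7.40-fold higher in stem cells (log2 2.89 ± 0.33 SE, limma adjusted p = 0.000508). Among Hox genes, Hoxa5 (1.94), Hoxa7 (0.81), Hoxa9 (1.85), Hoxb5 (2.96) and Hoxa10 (at least 23.2-fold) were higher and Hoxb4 (0.20) did not pass. The bound of Hoxa10 was not checked with normexp. Gata3 (5.21), Gata2 (1.05), Tal1 (1.40), Erg (1.20) and Gfi1b (1.85), factors of early blood formation, were higher as well. Fli1 (-0.52) and Runx1 (-0.28), which stay active in myeloid cells, were lower, and another probe of Runx1 pointed the other way. Mecom, a factor needed by stem cells, read -4.19 and -4.26 against -6.36 to -4.72 (median -5.04), a difference of 0.97 ± 0.41 SE that did not pass (limma adjusted p = 0.0809). Mecom passed as higher in 6 of 24 alternatives, but with normexp its difference was 0.059. Hlf lies at chr11:90199978-90200037, Nkx2-3 at chr19:43689699-43689757 and Meis1 at chr11:18781206-18781265 by their mm9 probe positions.

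**Figure D3:**
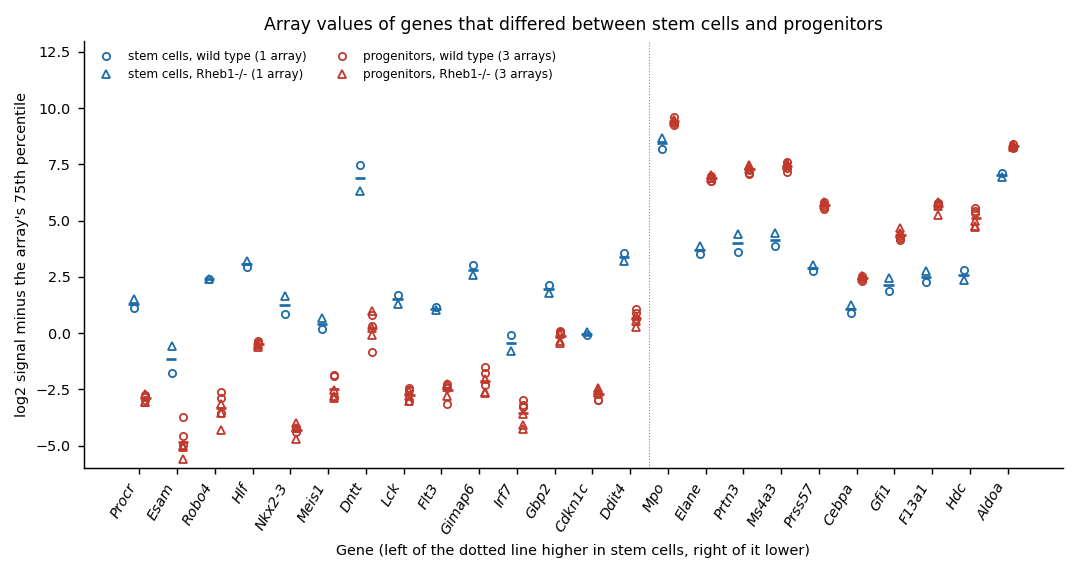
Values of 24 genes on each of the 8 arrays, as log2 signal with each array's 75th percentile at 0, with bars at the mean of the 2 stem cell and of the 6 progenitor arrays. The first 14 genes, left of the dotted line, were higher on both stem cell arrays than on every progenitor array, and the 10 genes right of it lower.

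Genes that mark lymphoid priming were mostly higher in stem cells. In this list 19 of 23 tested members (24 listed) were higher and 1 lower in stem cells (medians 2.13 in wild type and 2.12 in Rheb1-/- cells). There were 18 higher and 0 lower without the wild-type stem cell array, and 19 and 0 without the Rheb1-/- array. Among members well above background on all 8 arrays, 16 of 20 were higher and 1 lower. Dntt, the terminal transferase that diversifies antigen receptors, read 7.47 on the wild-type and 6.32 on the Rheb1-/- stem cell array against -0.84 to 0.96 (median 0.26) on the progenitor arrays, 102-fold higher in stem cells (log2 6.67 ± 0.53 SE, limma adjusted p = 0.000133). For Flt3, the receptor of multipotent and lymphoid progenitors, the wild-type and Rheb1-/- stem cell arrays gave 1.15 and 1.01 and the progenitor arrays -3.17 to -2.27 (median -2.37), 12.3-fold higher in stem cells (log2 3.62 ± 0.26 SE, limma adjusted p = 0.000105). The signal of Lck, a kinase of T cell receptor signalling, was 1.71 and 1.30 on the wild-type and Rheb1-/- stem cell arrays and -3.02 to -2.45 (median -2.70) on the progenitor arrays, 18.9-fold higher in stem cells (log2 4.24 ± 0.19 SE, limma adjusted p = 2.71e-05). No progenitor array reached either stem cell array in these genes, which for Dntt the naming rule required. Satb1, a chromatin organiser of lymphoid cells, read 3.45 on the wild-type and 3.34 on the Rheb1-/- stem cell array against 1.04 to 1.43 (median 1.31) on the progenitor arrays, 4.36-fold higher in stem cells (log2 2.12 ± 0.11 SE, limma adjusted p = 3.64e-05). For Mef2c, a factor with a role in lymphoid fate, the wild-type and Rheb1-/- stem cell arrays gave 2.77 and 3.06 and the progenitor arrays 0.95 to 1.32 (median 1.12), 3.44-fold higher in stem cells (log2 1.78 ± 0.12 SE, limma adjusted p = 8.94e-05). Il7r, the receptor for interleukin 7, was higher by 4.98 and the recombinase gene Rag1 by 5.11, in wild type more than in Rheb1-/- cells (Rag1 6.48 in wild type and 3.75 in Rheb1-/- cells). Id2, Ikzf3 and Cd48 did not pass. GIMAP genes encode GTPases of lymphocytes. In their list, with adhesion genes, 10 of 19 tested members (20 listed) were higher and 4 lower in stem cells (median 1.40). There were 12 higher and 1 lower without the wild-type stem cell array, and 10 and 2 without the Rheb1-/- array. Of those well above background on all 8 arrays 7 of 15 were higher and 4 lower, and the list median with normexp was 0.57. The signal of Gimap6, a member of this family, was 3.04 and 2.59 on the wild-type and Rheb1-/- stem cell arrays and -2.67 to -1.52 (median -2.15) on the progenitor arrays, 31.2-fold higher in stem cells (log2 4.96 ± 0.25 SE, limma adjusted p = 3.28e-05). Gimap5 (3.52) and Gimap9 (1.40) were higher too. The part of lymphoid progenitors or lymphocytes in the stem cell samples in these differences was not tested.

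Genes of B cells and of T and NK cells moved the same way. Of B cell genes, 17 of 18 tested members (21 listed) were higher and 1 lower in stem cells (median 3.19, over all on the array 2.57). There were 15 higher and 0 lower without the wild-type stem cell array, and 17 and 0 without the Rheb1-/- array. Of the T and NK cell genes, 21 of 25 tested members (27 listed) were higher and 2 lower in stem cells (median 2.67). There were 21 higher and 2 lower without the wild-type stem cell array, and 22 and 2 without the Rheb1-/- array. Of the members well above background on all 8 arrays, 13 of 14 were higher and 1 lower among B cell genes and 9 of 13 were higher and 2 lower among T and NK cell genes. With normexp the medians were 2.26 and 0.92. Cd72, a surface receptor of B cells, read 0.53 on the wild-type and 0.65 on the Rheb1-/- stem cell array against -2.08 to -1.44 (median -1.89) on the progenitor arrays, 5.24-fold higher in stem cells (log2 2.39 ± 0.16 SE, limma adjusted p = 8.01e-05). For Igll1, the surrogate light chain of precursor B cells, the wild-type and Rheb1-/- stem cell arrays gave 2.82 and 0.66 and the progenitor arrays -3.30 to -2.54 (median -2.75), 24.0-fold higher in stem cells (log2 4.58 ± 0.49 SE, limma adjusted p = 0.000388). Klrb1c, the NK1.1 antigen, read -2.13 on the wild-type and -1.98 on the Rheb1-/- stem cell array against -5.07 to -4.56 (median -4.79) on the progenitor arrays, 6.69-fold higher in stem cells (log2 2.74 ± 0.13 SE, limma adjusted p = 2.87e-05). All of these stem cell values lay above the progenitor range, and for Igll1 the wild-type array was the higher of the stem cell arrays. The T cell antigen genes Cd3d (2.67), Cd3g (at least 2.67-fold) and Cd8a (at least 9.68-fold) were higher, whereas Cd3e (-0.25) and Cd4 (0.59) did not pass. The bounds of Cd3g and Cd8a were not checked with normexp. Nkg7, in the T and NK list but also an abundant gene of granule-bearing progenitors, was 4.49-fold lower in stem cells (log2 -2.17 ± 0.11 SE, limma adjusted p = 3.49e-05), and the summed signal of that list, Nkg7 included, was lower on the stem cell arrays (45.5 and 55.6) than on the progenitor arrays (154 to 178). The B cell sum was 250 on the wild-type and 99.0 on the Rheb1-/- stem cell array against 48.1 to 67.6. The part of mature lymphocytes in these differences was not tested.

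The 12 genes with the largest rises included several outside the stem cell lists. Sgsm1, a modulator of small GTPases, read 0.45 on the wild-type and 0.35 on the Rheb1-/- stem cell array against -8.11 to -6.85 (median -7.36) on the progenitor arrays, at least 88.0-fold higher in stem cells (fitted log2 7.83 ± 0.21 SE, limma adjusted p = 2e-05). For Slc16a11, a monocarboxylate transporter family member, the wild-type and Rheb1-/- stem cell arrays gave 3.28 and 3.72 and the progenitor arrays -3.81 to -2.86 (median -3.11), 105-fold higher in stem cells (log2 6.71 ± 0.29 SE, limma adjusted p = 2.69e-05). The signal of Tox, an HMG-box factor of lymphoid development, was -1.40 and -1.50 on the wild-type and Rheb1-/- stem cell arrays and -8.64 to -7.43 (median -8.18) on the progenitor arrays, at least 24.4-fold higher in stem cells (fitted log2 6.66 ± 0.23 SE, limma adjusted p = 2e-05). The progenitor arrays lay below both stem cell arrays throughout, as the naming rule required. Sgsm1 and Tox were not well above background on any progenitor array and entered the test only through their stem cell signal. With normexp they were higher by 3.6 and 2.56, less than their log2 bounds of 6.46 and 4.61, so that the bounds did not hold there. Ddx4, an RNA helicase known from germ cells, read 0.40 on the wild-type and -0.37 on the Rheb1-/- stem cell array against -7.15 to -5.84 (median -6.33) on the progenitor arrays, higher in stem cells (log2 6.53 ± 0.38 SE, limma adjusted p = 4.96e-05, well above background on 1 of 6 progenitor arrays; 3.27 with normexp). For Wfdc18, a secreted protein of the whey acidic protein family, the wild-type and Rheb1-/- stem cell arrays gave 0.72 and 0.35 and the progenitor arrays -6.73 to -4.87 (median -5.25), higher in stem cells (log2 5.98 ± 0.44 SE, limma adjusted p = 0.000103, well above background on 5 of 6 progenitor arrays; 3.86 with normexp). The uncharacterised RNA 4930437M23Rik was at least 45.8-fold higher in stem cells (fitted log2 7.28 ± 0.33 SE, limma adjusted p = 2.81e-05). With normexp 4930437M23Rik was higher by 2.94, less than its log2 bound of 5.52. Dntt and Meg3 completed the 12 genes, with 4 immunoglobulin genes. Jchain, the chain that joins polymeric immunoglobulin, read 6.80 on the wild-type and 2.51 on the Rheb1-/- stem cell array against -2.67 to -0.51 (median -1.75), 77.6-fold higher in stem cells (log2 6.28 ± 0.92 SE, limma adjusted p = 0.0013). The 3 light chain segments of the kappa family among these differed likewise more in wild type (8.10, 8.66 and 7.95) than in Rheb1-/- cells (4.97, 4.41 and 4.18), and all 13 immunoglobulin variable genes tested were higher on the wild-type than on the Rheb1-/- stem cell array. Such segments have related copies, which the array may not tell apart.

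Primary granule genes were lower in stem cells than in progenitors in both genotypes. In this list 0 of 20 tested members (21 listed) were higher and 19 lower in stem cells (medians -1.77 in wild type and -1.66 in Rheb1-/- cells). There were 0 higher and 20 lower without the wild-type stem cell array, and 1 and 19 without the Rheb1-/- array. Elane, neutrophil elastase, read 3.53 on the wild-type and 3.89 on the Rheb1-/- stem cell array against 6.77 to 7.04 (median 6.89) on the progenitor arrays, 9.12-fold lower in stem cells (log2 -3.19 ± 0.11 SE, limma adjusted p = 2e-05). For Prtn3, proteinase 3, the wild-type and Rheb1-/- stem cell arrays gave 3.62 and 4.42 and the progenitor arrays 7.08 to 7.49 (median 7.27), 9.56-fold lower in stem cells (log2 -3.26 ± 0.13 SE, limma adjusted p = 2.43e-05). The signal of Mpo, myeloperoxidase, was 8.20 and 8.66 on the wild-type and Rheb1-/- stem cell arrays and 9.27 to 9.62 (median 9.44) on the progenitor arrays, 2.0-fold lower in stem cells (log2 -1.0 ± 0.13 SE, limma adjusted p = 0.000943). The stem cell arrays were below every progenitor array for the 3 genes, Mpo by the smallest margin. Prss57, a serine protease of neutrophil granules, read 2.76 on the wild-type and 3.04 on the Rheb1-/- stem cell array against 5.51 to 5.82 (median 5.74) on the progenitor arrays, 7.0-fold lower in stem cells (log2 -2.81 ± 0.11 SE, limma adjusted p = 2.35e-05). For Ctsg, cathepsin G, the wild-type and Rheb1-/- stem cell arrays gave 6.94 and 7.80 and the progenitor arrays 8.92 to 9.21 (median 9.15), 3.31-fold lower in stem cells (log2 -1.73 ± 0.17 SE, limma adjusted p = 0.000261). Both proteases again had no overlap between the groups. The letters TTGCNNAA, a core of C/EBP sites, stood within the 250 bases before the start, on either strand, in 5 of 17 members with a RefSeq promoter (29.4%), in 9.56% of all promoters there and in 9.32% of tested genes. That share describes the list and not the difference between cell types. Dmkn, which encodes dermokine and had the largest fall in the list, was 14.7-fold lower in stem cells (log2 -3.88 ± 0.13 SE, limma adjusted p = 2e-05). Ctsc, cathepsin C, differed by 0.99 in wild type and -0.91 in Rheb1-/- cells and did not pass. By their mm9 probes, Elane lies at chr10:79350763-79350822, Prtn3 at chr10:79343869-79344685 and Mpo at chr11:87617102-87617877.

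Receptors and antigens of myeloid progenitors were mostly lower. In this list 2 of 23 tested members were higher and 12 lower in stem cells (median -0.65). There were 1 higher and 14 lower without the wild-type stem cell array, and 3 and 12 without the Rheb1-/- array. The signal of Ms4a3, a membrane protein of granulocyte and monocyte progenitors, was 3.87 and 4.44 on the wild-type and Rheb1-/- stem cell arrays and 7.17 to 7.62 (median 7.45) on the progenitor arrays, 9.68-fold lower in stem cells (log2 -3.27 ± 0.15 SE, limma adjusted p = 2.87e-05). Fcgr2b, the inhibitory receptor for IgG, read 0.81 on the wild-type and 0.79 on the Rheb1-/- stem cell array against 2.69 to 3.03 (median 2.90) on the progenitor arrays, 4.22-fold lower in stem cells (log2 -2.08 ± 0.097 SE, limma adjusted p = 2.87e-05). For Ly6c1, a Ly6C antigen, the wild-type and Rheb1-/- stem cell arrays gave 3.85 and 3.45 and the progenitor arrays 6.09 to 6.44 (median 6.25), 6.11-fold lower in stem cells (log2 -2.61 ± 0.14 SE, limma adjusted p = 3.49e-05). Groups did not overlap, but Ly6c1 and Ly6c2 are close copies that the array may not separate. Fcgr3, the IgG receptor that marks granulocyte and monocyte progenitors, read 3.55 on the wild-type and 1.75 on the Rheb1-/- stem cell array against 4.70 to 4.91 (median 4.81) on the progenitor arrays, 4.49-fold lower in stem cells (log2 -2.17 ± 0.35 SE, limma adjusted p = 0.002). Here the wild-type stem cell array was the higher of the 2. The GM-CSF receptor genes Csf2ra (-1.55) and Csf2rb (-1.17) and the chemokine receptor Ccr2 (-1.38) were lower. Csf3r, the G-CSF receptor, read 1.61 and 2.02 against 1.55 to 2.54 (median 2.27), a difference of -0.40 ± 0.20 SE that did not pass (limma adjusted p = 0.126). Csf1r, the M-CSF receptor, differed by 0.88 in wild type and -0.46 in Rheb1-/- cells and did not pass. Without the wild-type stem cell array it passed as lower (-0.46), and other probes of the gene disagreed.

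Myeloid transcription factors followed in part. In this list 4 of 22 tested members (23 listed) were higher and 12 lower in stem cells (median -0.41). There were 3 higher and 9 lower without the wild-type stem cell array, and 6 and 9 without the Rheb1-/- array. Cebpa, the factor required to form granulocyte and monocyte progenitors, read 0.91 on the wild-type and 1.27 on the Rheb1-/- stem cell array against 2.31 to 2.56 (median 2.50) on the progenitor arrays, 2.61-fold lower in stem cells (log2 -1.38 ± 0.10 SE, limma adjusted p = 0.0001). For Gfi1, a transcriptional repressor that acts in granulocyte development, the wild-type and Rheb1-/- stem cell arrays gave 1.88 and 2.43 and the progenitor arrays 4.15 to 4.67 (median 4.37), 4.66-fold lower in stem cells (log2 -2.22 ± 0.11 SE, limma adjusted p = 3.49e-05). The signal of Tfec, a relative of the factor Mitf, was -0.64 and -0.19 on the wild-type and Rheb1-/- stem cell arrays and 1.61 to 1.95 (median 1.84) on the progenitor arrays, 4.68-fold lower in stem cells (log2 -2.23 ± 0.11 SE, limma adjusted p = 2.95e-05). Both stem cell arrays were below the 6 progenitor arrays for each of them. Cebpd (-2.26), Spi1 (-1.25), Cebpb (-1.10), Myb (-0.64) and Irf8 (-0.34) were lower, and Myc (-0.24) did not pass. Nr4a1, an immediate early nuclear receptor, was 14.9-fold higher in stem cells (log2 3.90 ± 0.35 SE, limma adjusted p = 0.000205). The macrophage factor Maf (2.25 in wild type and 0.15 in Rheb1-/- cells) was higher, mainly on the wild-type stem cell array.

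Genes of eosinophils, basophils and mast cells were among the largest falls. In this list 1 of 17 tested members (23 listed) was higher and 14 lower in stem cells (median -2.53, over all on the array -1.84). There were 1 higher and 12 lower without the wild-type stem cell array, and 1 and 12 without the Rheb1-/- array. Epx, eosinophil peroxidase, read 4.21 on the wild-type and 0.72 on the Rheb1-/- stem cell array against 6.05 to 7.80 (median 7.30) on the progenitor arrays, 24.6-fold lower in stem cells (log2 -4.62 ± 0.63 SE, limma adjusted p = 0.000998). For Prg3, an eosinophil granule protein, the wild-type and Rheb1-/- stem cell arrays gave 3.62 and 0.0028 and the progenitor arrays 5.11 to 7.11 (median 6.66), 24.6-fold lower in stem cells (log2 -4.62 ± 0.68 SE, limma adjusted p = 0.00137). Hdc, histidine decarboxylase, read 2.82 on the wild-type and 2.37 on the Rheb1-/- stem cell array against 4.72 to 5.55 (median 5.16) on the progenitor arrays, 5.79-fold lower in stem cells (log2 -2.53 ± 0.10 SE, limma adjusted p = 2.5e-05). Every stem cell value was below the progenitor range, as the naming rule required for Epx and Prg3. In Epx and Prg3 the wild-type stem cell array stood far above the Rheb1-/- stem cell array. The eosinophil ribonucleases Ear1 (-1.72 in wild type and -6.11 in Rheb1-/- cells), Ear6 (-2.42 in wild type and -6.30 in Rheb1-/- cells) and Ear10 (-2.29 in wild type and -6.18 in Rheb1-/- cells), which are near-identical copies, showed the same gap. The signal of Mcpt8, a basophil protease, was 1.39 and 0.94 on the wild-type and Rheb1-/- stem cell arrays and 2.92 to 4.46 (median 3.92) on the progenitor arrays, 5.82-fold lower in stem cells (log2 -2.54 ± 0.28 SE, limma adjusted p = 0.000437). Ms4a2, the beta chain of the IgE receptor, read -4.38 on the wild-type and -4.32 on the Rheb1-/- stem cell array against -1.77 to -0.79 (median -1.22) on the progenitor arrays, 8.46-fold lower in stem cells (log2 -3.08 ± 0.22 SE, limma adjusted p = 0.000101). These basophil and mast cell genes differed little between the stem cell arrays. Ccr3, the eotaxin receptor, differed by 5.0 in wild type and -0.31 in Rheb1-/- cells and did not pass.

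Other large falls lay outside the lists. For Far2, a fatty acyl-CoA reductase, the wild-type and Rheb1-/- stem cell arrays gave -3.84 and -4.07 and the progenitor arrays -0.33 to 0.053 (median -0.15), 14.1-fold lower in stem cells (log2 -3.82 ± 0.12 SE, limma adjusted p = 2e-05). Ldhc, a lactate dehydrogenase known from testis, read -0.27 on the wild-type and -4.10 on the Rheb1-/- stem cell array against 0.73 to 2.78 (median 2.02) on the progenitor arrays, 17.1-fold lower in stem cells (log2 -4.09 ± 0.62 SE, limma adjusted p = 0.00146). The signal of Trnp1, a nuclear protein known from brain development, was -5.22 and -6.60 on the wild-type and Rheb1-/- stem cell arrays and -4.21 to -0.84 (median -1.69) on the progenitor arrays, lower in stem cells (log2 -3.79 ± 0.54 SE, limma adjusted p = 0.00117, well above background on 1 of 2 stem cell arrays; -2.04 with normexp). The stem cell arrays were the lowest for each, as the naming rule required, and the progenitor arrays of Trnp1 spread over more than 3 units. The developmental factor Sim2 was at least 5.94-fold lower in stem cells (fitted log2 -4.55 ± 0.42 SE, limma adjusted p = 0.000227), and the dehydrogenase family member Dhrs7c was at least 6.08-fold lower in stem cells (fitted log2 -4.29 ± 0.59 SE, limma adjusted p = 0.000992). With normexp Sim2 and Dhrs7c differed by -1.31 and -1.45, smaller in size than their log2 bounds of 2.57 and 2.61. Cux2, a homeobox factor, was lower in stem cells, though the probe was not well above background on either stem cell array (limma adjusted p = 0.000108; -1.59 with normexp).

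Later granule genes and macrophage genes depended on the stem cell array. Of secondary and tertiary granule genes, 2 of 21 tested members were higher and 7 lower in stem cells (medians 0.16 in wild type and -1.01 in Rheb1-/- cells; 0 higher and 10 lower without the wild-type stem cell array and 4 higher and 5 lower without the Rheb1-/- array), so that the direction of the median differed between the genotypes. Hp, haptoglobin, read 4.78 on the wild-type and 4.04 on the Rheb1-/- stem cell array against 6.72 to 7.32 (median 7.02) on the progenitor arrays, 6.04-fold lower in stem cells (log2 -2.59 ± 0.23 SE, limma adjusted p = 0.000185). For Ncf4, a subunit of the phagocyte oxidase, the wild-type and Rheb1-/- stem cell arrays gave 5.45 and 4.84 and the progenitor arrays 6.24 to 6.72 (median 6.55), 2.55-fold lower in stem cells (log2 -1.35 ± 0.19 SE, limma adjusted p = 0.00122). In these genes both stem cell arrays lay below the progenitors. The share of secondary and tertiary granule genes called lower was near the 33.5% of all genes tested. Of monocyte and macrophage genes, 10 of 27 tested members (28 listed) were higher and 4 lower in stem cells (medians 2.32 in wild type and -0.22 in Rheb1-/- cells), against 22.4% and 33.5% of all genes tested. There were 8 higher and 9 lower without the wild-type stem cell array, and 20 and 3 without the Rheb1-/- array. The signal of F13a1, coagulation factor XIII, a monocyte progenitor gene, was 2.27 and 2.76 on the wild-type and Rheb1-/- stem cell arrays and 5.27 to 5.84 (median 5.73) on the progenitor arrays, 8.85-fold lower in stem cells (log2 -3.15 ± 0.19 SE, limma adjusted p = 5.63e-05). F10, coagulation factor X, read 0.86 on the wild-type and 0.93 on the Rheb1-/- stem cell array against 3.72 to 4.24 (median 4.10) on the progenitor arrays, 8.75-fold lower in stem cells (log2 -3.13 ± 0.16 SE, limma adjusted p = 3.49e-05). Ms4a6c was lower as well (-1.32). The complement genes C1qa (7.44 in wild type and 4.35 in Rheb1-/- cells), C1qb (6.34 in wild type and 2.56 in Rheb1-/- cells) and C1qc (7.08 in wild type and 4.29 in Rheb1-/- cells) were higher, more in wild type. The efferocytosis receptor Mertk was higher too (at least 38.9-fold, a bound not checked with normexp). Adgre1, a surface receptor of tissue macrophages, differed by 2.15 in wild type and -1.85 in Rheb1-/- cells and did not pass. F13a1, F10 and Ms4a6c were thus lower in both genotypes and the genes of tissue macrophages higher or split between them, while the macrophage sums of the stem cell arrays were 697 and 114. The part of macrophages in the wild-type stem cell sample was not tested.

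Megakaryocyte genes also split by genotype. In this list 6 of 19 tested members (22 listed) were higher and 0 lower in stem cells (medians -0.16 in wild type and 1.42 in Rheb1-/- cells), against 22.4% and 33.5% of all genes tested. There were 11 higher and 1 lower without the wild-type stem cell array, and 4 and 2 without the Rheb1-/- array. For Mmrn1, multimerin 1, the wild-type and Rheb1-/- stem cell arrays gave 0.68 and 0.50 and the progenitor arrays -3.71 to -0.83 (median -2.11), 6.73-fold higher in stem cells (log2 2.75 ± 0.48 SE, limma adjusted p = 0.00275). Zfpm1, the GATA1 cofactor FOG1, read 4.34 on the wild-type and 4.42 on the Rheb1-/- stem cell array against 1.81 to 3.49 (median 2.60) on the progenitor arrays, 3.36-fold higher in stem cells (log2 1.75 ± 0.33 SE, limma adjusted p = 0.00391). Both were above the progenitors on both stem cell arrays, and their calls were lost in 2 and 3 of 25 alternatives. The summed signal of the list was 83.7 and 88.5 on the wild-type and Rheb1-/- stem cell arrays. On the progenitor arrays it was 77.0 to 97.0 in wild type and 38.9 to 55.9 in Rheb1-/- cells. Gene by gene, the stem cell minus progenitor difference was greater in wild type than in Rheb1-/- cells in 3 of 19 members. Among all 16921 genes tested this held in 6450. The sums of the stem cell arrays, which abundant genes carry, lay close together, whereas those of the progenitor arrays differed between the genotypes. Of erythroid genes, 7 of 23 tested members (27 listed) were higher and 4 lower in stem cells, against 22.4% and 33.5% of all genes tested. Their median was 0.86 (1.53 in wild type and 0.71 in Rheb1-/- cells, over all on the array 0.84). There were 5 higher and 2 lower without the wild-type stem cell array, and 10 and 3 without the Rheb1-/- array. With normexp the median was 0.43. Car2, carbonic anhydrase 2, read 4.43 on the wild-type and 3.97 on the Rheb1-/- stem cell array against 0.48 to 2.20 (median 1.48) on the progenitor arrays, 7.19-fold higher in stem cells (log2 2.85 ± 0.29 SE, limma adjusted p = 0.000321). The signal of Epor, the erythropoietin receptor, was 1.35 and -0.0037 on the wild-type and Rheb1-/- stem cell arrays and -2.25 to -0.86 (median -1.59) on the progenitor arrays, 4.58-fold higher in stem cells (log2 2.19 ± 0.27 SE, limma adjusted p = 0.000611).

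Interferon response genes were higher in stem cells in both genotypes. In this list 30 of 38 tested members were higher and 1 lower in stem cells (medians 1.45 in wild type and 1.67 in Rheb1-/- cells; 28 higher and 0 lower without the wild-type stem cell array and 29 higher and 1 lower without the Rheb1-/- array), compared with 22.4% higher among all genes tested. Interferons induce these genes through STAT and IRF proteins that bind the interferon-stimulated response element. Promoters were searched for its letters GAAANNGAAA on both strands over the 250 bases before the RefSeq start of the gene. Of the 38 members, 30 had a promoter in the RefSeq table (GRCm38.p6), and 12 of them held the motif, 11 of these called. The share was 2.98% of all 32851 promoters in the table and 3.35% of the 10939 tested genes with a promoter there. A match describes letters, not binding. The list is made of genes that interferons induce, so that its share with the motif describes the list and not the difference between cell types. The 150 bases before the start of the 4 called members of smallest p with a match there are shown 5′ to 3′, on the gene's strand, with the motif in capitals.
Gbp2: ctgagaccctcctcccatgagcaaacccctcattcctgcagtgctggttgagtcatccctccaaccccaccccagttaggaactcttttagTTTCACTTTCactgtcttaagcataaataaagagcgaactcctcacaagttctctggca
Ifit3: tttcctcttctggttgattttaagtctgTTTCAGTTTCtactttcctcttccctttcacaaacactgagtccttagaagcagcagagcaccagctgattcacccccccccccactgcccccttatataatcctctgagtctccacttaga
Rsad2: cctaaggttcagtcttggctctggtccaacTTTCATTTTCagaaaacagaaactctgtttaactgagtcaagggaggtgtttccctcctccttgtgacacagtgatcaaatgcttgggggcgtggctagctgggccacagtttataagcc
Oas3: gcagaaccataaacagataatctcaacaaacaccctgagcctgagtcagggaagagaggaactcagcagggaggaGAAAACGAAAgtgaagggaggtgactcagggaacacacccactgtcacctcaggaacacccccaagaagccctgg
They lie, in GRCm38.p6, at chr3:142620513-142620662 (plus strand), chr19:34583379-34583528 (plus strand), chr12:26456453-26456602 (minus strand) and chr5:120777660-120777809 (minus strand).

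Gbp2, a guanylate-binding GTPase, read 2.15 on the wild-type and 1.80 on the Rheb1-/- stem cell array against -0.45 to 0.078 (median -0.021) on the progenitor arrays, 4.29-fold higher in stem cells (log2 2.10 ± 0.12 SE, limma adjusted p = 4.3e-05). For Ifit3, an antiviral protein with tetratricopeptide repeats, the wild-type and Rheb1-/- stem cell arrays gave 0.65 and -1.25 and the progenitor arrays -4.51 to -3.09 (median -3.75), 11.7-fold higher in stem cells (log2 3.55 ± 0.29 SE, limma adjusted p = 0.000146). The signal of Rsad2, viperin, was 0.52 and -0.30 on the wild-type and Rheb1-/- stem cell arrays and -3.54 to -2.12 (median -2.61) on the progenitor arrays, 7.13-fold higher in stem cells (log2 2.83 ± 0.25 SE, limma adjusted p = 0.000185). All stem cell values of these genes were above the progenitor range. Oas3, an oligoadenylate synthetase, read -0.93 on the wild-type and -0.79 on the Rheb1-/- stem cell array against -3.57 to -2.80 (median -3.20) on the progenitor arrays, 5.02-fold higher in stem cells (log2 2.33 ± 0.24 SE, limma adjusted p = 0.000323). For Irf7, the factor that amplifies the interferon response, the wild-type and Rheb1-/- stem cell arrays gave -0.10 and -0.80 and the progenitor arrays -4.28 to -2.97 (median -3.42), 8.62-fold higher in stem cells (log2 3.11 ± 0.19 SE, limma adjusted p = 5.52e-05). Gbp6, another guanylate-binding GTPase, read -0.86 on the wild-type and -2.83 on the Rheb1-/- stem cell array against -7.79 to -5.99 (median -7.18) on the progenitor arrays, at least 18.5-fold higher in stem cells (fitted log2 5.21 ± 0.38 SE, limma adjusted p = 9.92e-05). Again no stem cell value overlapped the progenitors, and the wild-type stem cell array was the higher one for Irf7 and Gbp6. With normexp Gbp6 was higher by 1.77, less than its log2 bound of 4.21. Ifi44 (4.63), Iigp1 (4.79), Ifitm1 (2.41), Ifitm3 (1.31) and Isg15 (1.87), which encode interferon-induced effectors, were higher. Of the signalling factors, Irf9 (0.88) and Stat2 (0.51) were higher. Gbp3 was the only member called lower (-0.59). The antigen presentation gene B2m (-0.096) and the immunoproteasome gene Psmb8 (0.018) did not pass.

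Genes of DNA replication and mitosis were lower in stem cells. Of replication genes, 0 of 40 tested members were higher and 31 lower in stem cells (medians -0.62 in wild type and -0.51 in Rheb1-/- cells), and of mitosis genes 1 of 40 tested members was higher and 33 lower in stem cells (medians -0.67 in wild type and -0.59 in Rheb1-/- cells). Without the wild-type stem cell array 27 and 25 were lower, and without the Rheb1-/- array 32 and 31. Fewer were lower with quantile normalization (19 and 23) and with slide as a fixed block on 8 arrays (16 and 13) or on all 14 (8 and 7, with medians of -0.35 and -0.42). Cdc6, a loader of the replicative helicase, read 0.71 on the wild-type and 0.75 on the Rheb1-/- stem cell array against 1.69 to 1.93 (median 1.82) on the progenitor arrays, 2.12-fold lower in stem cells (log2 -1.08 ± 0.084 SE, limma adjusted p = 0.000128). For Gins1, a subunit of that helicase, the wild-type and Rheb1-/- stem cell arrays gave 2.61 and 2.68 and the progenitor arrays 3.39 to 3.53 (median 3.43), 1.74-fold lower in stem cells (log2 -0.80 ± 0.074 SE, limma adjusted p = 0.000226). The signal of Orc1, the largest subunit of the origin recognition complex, was -2.19 and -2.25 on the wild-type and Rheb1-/- stem cell arrays and -1.40 to -1.17 (median -1.27) on the progenitor arrays, 1.91-fold lower in stem cells (log2 -0.94 ± 0.093 SE, limma adjusted p = 0.000295). Both stem cell arrays were below all progenitor arrays for each of them. Mad2l1, a spindle checkpoint protein, read 0.52 on the wild-type and 0.25 on the Rheb1-/- stem cell array against 1.28 to 1.65 (median 1.49) on the progenitor arrays, 2.14-fold lower in stem cells (log2 -1.10 ± 0.082 SE, limma adjusted p = 0.000111). For Aurkb, aurora kinase B, the wild-type and Rheb1-/- stem cell arrays gave 1.08 and 1.11 and the progenitor arrays 2.07 to 2.34 (median 2.19), 2.14-fold lower in stem cells (log2 -1.10 ± 0.11 SE, limma adjusted p = 0.000314). Ttk, the Mps1 checkpoint kinase, read -2.36 on the wild-type and -2.56 on the Rheb1-/- stem cell array against -1.69 to -1.48 (median -1.64) on the progenitor arrays, 1.79-fold lower in stem cells (log2 -0.84 ± 0.082 SE, limma adjusted p = 0.000278). The stem cell arrays lay close together in these 6 genes, below every progenitor array. E2F sites were searched as TTTGGCGC or TTTCCCGC on both strands of the same windows. Of 33 replication genes with a promoter, 6 held a match, all called lower, and of 33 mitosis genes 0, against 1.30% of all promoters and 2.74% of tested genes. Such shares describe the lists and not the difference between cell types. The members of smallest p with a match in the last 150 bases are shown in the same way.
Cdc6: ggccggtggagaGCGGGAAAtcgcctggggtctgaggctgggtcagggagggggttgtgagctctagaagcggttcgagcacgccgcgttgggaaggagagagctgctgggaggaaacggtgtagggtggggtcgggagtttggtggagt
Gins3: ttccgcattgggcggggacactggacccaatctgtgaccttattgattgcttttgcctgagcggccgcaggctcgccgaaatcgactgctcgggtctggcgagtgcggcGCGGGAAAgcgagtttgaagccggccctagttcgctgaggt
Mcm6: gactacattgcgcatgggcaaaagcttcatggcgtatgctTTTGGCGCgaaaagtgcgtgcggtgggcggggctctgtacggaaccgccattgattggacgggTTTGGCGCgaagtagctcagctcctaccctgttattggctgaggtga
They lie at chr11:98908001-98908150 (plus strand), chr8:95633409-95633558 (plus strand) and chr1:128359706-128359855 (minus strand). Gins3, another subunit of the helicase, was lower (-0.67) and so was Mcm6, of its ring (-0.50).

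Regulators of the entry into the cycle lay on both sides of 0. Over all genes tested 22.4% were higher and 33.5% lower, and the shares of this list were not far from these. Of G1 cyclins and inhibitors of cyclin-dependent kinases, 7 of 28 tested members (29 listed) were higher and 11 lower in stem cells (median 0.029). There were 3 higher and 4 lower without the wild-type stem cell array, and 6 and 8 without the Rheb1-/- array. Cdkn1c, the inhibitor p57, read -0.10 on the wild-type and 0.029 on the Rheb1-/- stem cell array against -2.98 to -2.42 (median -2.69) on the progenitor arrays, 6.39-fold higher in stem cells (log2 2.68 ± 0.12 SE, limma adjusted p = 2.73e-05). For Cdkn1a, the inhibitor p21, the wild-type and Rheb1-/- stem cell arrays gave 1.02 and 1.18 and the progenitor arrays -0.99 to -0.63 (median -0.72), 3.67-fold higher in stem cells (log2 1.88 ± 0.13 SE, limma adjusted p = 9.58e-05). The signal of E2f8, a repressor of the E2F family, was 0.99 and 0.66 on the wild-type and Rheb1-/- stem cell arrays and 1.77 to 2.20 (median 1.94) on the progenitor arrays, 2.21-fold lower in stem cells (log2 -1.14 ± 0.11 SE, limma adjusted p = 0.000254). The inhibitors were above and E2f8 was below the progenitor range on both stem cell arrays. Cdkn1b (p27) was higher by 0.51 and cyclin D1 (Ccnd1) by 1.73. Cyclin E1 (-0.59), Cdk2 (-0.95), Cdk4 (-0.51) and Cdk6 (-0.45) were lower, and other probes of Cdk2 and Cdk6 pointed the other way. Cdkn1c is also imprinted. Of 18 imprinted genes, 12 were tested, of which 4 were higher and 3 lower (median 0.0069, over all on the array -0.14). There were 4 higher and 0 lower without the wild-type stem cell array, and 4 and 3 without the Rheb1-/- array. Meg3, a maternally expressed noncoding RNA of stem cells, read -1.37 on the wild-type and 0.66 on the Rheb1-/- stem cell array against -7.71 to -5.97 (median -7.26) on the progenitor arrays, at least 51.3-fold higher in stem cells (fitted log2 6.64 ± 0.39 SE, limma adjusted p = 4.96e-05). For Sgce, epsilon-sarcoglycan, the wild-type and Rheb1-/- stem cell arrays gave 1.41 and 1.45 and the progenitor arrays -1.49 to -0.60 (median -0.95), 5.55-fold higher in stem cells (log2 2.47 ± 0.18 SE, limma adjusted p = 0.000105). With normexp Meg3 was higher by 3.28, less than its log2 bound of 5.68. Ndn (1.01) was the other member called higher, and Igf2, Peg3, Mest, Dcn, Magel2 and Slc38a4 were too dim to be tested.

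**Figure D4:**
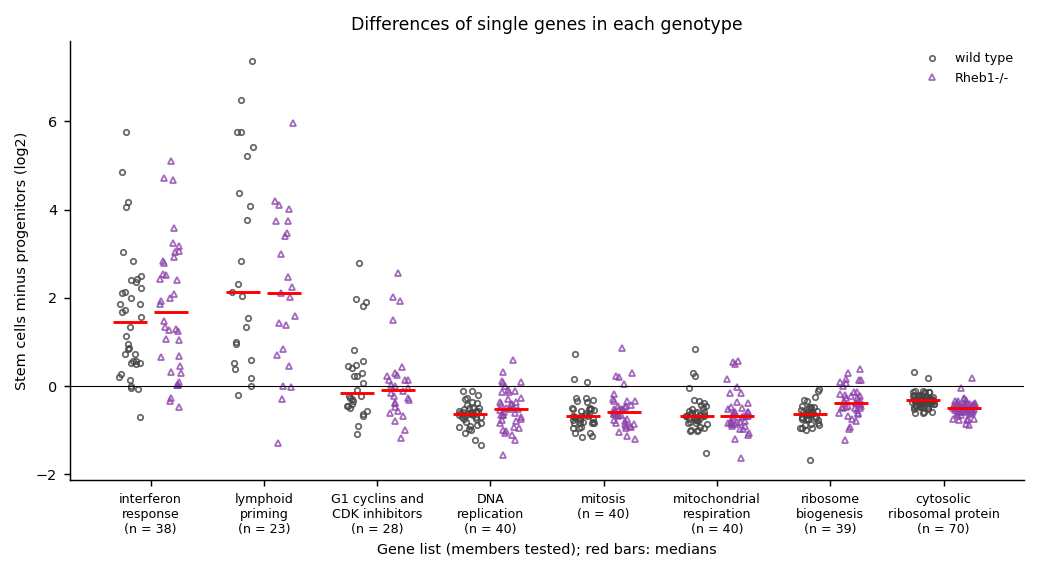
Stem cell minus progenitor differences of the tested members of 8 lists, on the log2 scale, with wild type as circles, Rheb1-/- as triangles and medians as red bars. Interferon and lymphoid priming genes lie mostly above 0 and replication, mitosis, respiration and ribosome biogenesis genes below it in both genotypes, as do ribosomal protein genes, whose median turned above 0 with quantile normalization and the deposited values.

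Genes of protein synthesis and energy metabolism were lower by small amounts. Of 70 cytosolic ribosomal protein genes, 60 were lower and 0 higher (medians -0.32 in wild type and -0.50 in Rheb1-/- cells), but with quantile normalization 1 was lower and 5 higher with a median of 0.049, and with the authors' deposited values 1 was lower and 7 higher with a median of 0.043. These genes have many near-identical pseudogene copies. Without the wild-type stem cell array 50 were lower, without the Rheb1-/- array 18, and with slide as a fixed block 0 on 8 arrays and 0 on 14. Rpsa, the laminin receptor protein of the small subunit, read 6.16 on the wild-type and 6.11 on the Rheb1-/- stem cell array against 6.69 to 7.03 (median 6.86) on the progenitor arrays, 1.65-fold lower in stem cells (log2 -0.72 ± 0.091 SE, limma adjusted p = 0.000731). For Rpl8, a protein of the large subunit, the wild-type and Rheb1-/- stem cell arrays gave 8.03 and 8.07 and the progenitor arrays 8.49 to 8.71 (median 8.65), 1.49-fold lower in stem cells (log2 -0.57 ± 0.075 SE, limma adjusted p = 0.000838). Of ribosome biogenesis genes, 0 of 39 tested members were higher and 27 lower in stem cells (median -0.49; 0 higher and 16 lower without the wild-type stem cell array and 0 higher and 32 lower without the Rheb1-/- array, 12 lower with quantile normalization and 10 with the slide block on 8 arrays and 6 on 14). The signal of Pno1, an assembly factor of the small subunit, was 3.01 and 2.96 on the wild-type and Rheb1-/- stem cell arrays and 3.87 to 4.02 (median 3.95) on the progenitor arrays, 1.95-fold lower in stem cells (log2 -0.96 ± 0.077 SE, limma adjusted p = 0.000139). The differences of these genes were smaller than a factor of 2, while both stem cell arrays lay below the progenitors.

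Of mitochondrial respiration genes, 0 of 40 tested members were higher and 35 lower in stem cells (medians -0.68 in wild type and -0.68 in Rheb1-/- cells; 1 higher and 32 lower without the wild-type stem cell array and 0 higher and 34 lower without the Rheb1-/- array, 18 lower and 2 higher with quantile normalization, 15 lower with the slide block). Cycs, cytochrome c, read 4.24 on the wild-type and 4.09 on the Rheb1-/- stem cell array against 5.55 to 5.95 (median 5.72) on the progenitor arrays, 2.97-fold lower in stem cells (log2 -1.57 ± 0.11 SE, limma adjusted p = 0.000103). For Cox5a, a subunit of cytochrome c oxidase, the wild-type and Rheb1-/- stem cell arrays gave 6.29 and 6.06 and the progenitor arrays 7.11 to 7.37 (median 7.19), 2.06-fold lower in stem cells (log2 -1.04 ± 0.087 SE, limma adjusted p = 0.00016). The signal of Ndufa1, a subunit of complex I, was 5.14 and 4.88 on the wild-type and Rheb1-/- stem cell arrays and 6.05 to 6.33 (median 6.07) on the progenitor arrays, 2.15-fold lower in stem cells (log2 -1.10 ± 0.10 SE, limma adjusted p = 0.000219). No stem cell value reached the progenitor range. Of glycolysis and HIF1 target genes, 8 of 31 tested members were higher and 19 lower in stem cells (median -0.46), against 22.4% and 33.5% of all genes tested. There were 8 higher and 16 lower without the wild-type stem cell array, and 7 and 18 without the Rheb1-/- array. Quantile normalization gave 10 higher and 13 lower, with a median of -0.17. Aldoa, the main muscle-type aldolase, read 7.11 on the wild-type and 6.92 on the Rheb1-/- stem cell array against 8.22 to 8.40 (median 8.32) on the progenitor arrays, 2.46-fold lower in stem cells (log2 -1.30 ± 0.093 SE, limma adjusted p = 9.76e-05). For Pgam1, phosphoglycerate mutase, the wild-type and Rheb1-/- stem cell arrays gave 5.35 and 5.69 and the progenitor arrays 6.87 to 7.05 (median 7.0), 2.73-fold lower in stem cells (log2 -1.45 ± 0.11 SE, limma adjusted p = 0.000119). Aldoc, the brain-type aldolase, read 0.20 on the wild-type and 0.46 on the Rheb1-/- stem cell array against -3.40 to -2.36 (median -2.81) on the progenitor arrays, 8.87-fold higher in stem cells (log2 3.15 ± 0.22 SE, limma adjusted p = 9.36e-05). The isoenzymes of aldolase thus differed in opposite directions, and so did the enolases Eno1 (-1.87) and Eno2 (at least 5.72-fold) and the phosphofructokinases Pfkp (-1.14) and Pfkm (1.67). The bound of Eno2 was not checked with normexp. Gapdh (-0.78), Ldha (-0.82), Hk2 (-1.02) and Hif1a (-1.27) were lower and Epas1 (1.95), which encodes HIF2 alpha, was higher.

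Genes of the mTORC1 pathway, to which Rheb belongs, showed no common direction. The shares called were near those of all genes tested, 22.4% higher and 33.5% lower. In this list 9 of 40 tested members were higher and 13 lower in stem cells (median -0.097, and 0.11 with 10 higher and 7 lower under quantile normalization). There were 9 higher and 10 lower without the wild-type stem cell array, and 4 and 11 without the Rheb1-/- array. Lamtor2, a subunit of the Ragulator complex that tethers mTORC1 to lysosomes, read 2.38 on the wild-type and 2.37 on the Rheb1-/- stem cell array against 4.92 to 5.35 (median 5.13) on the progenitor arrays, 6.71-fold lower in stem cells (log2 -2.75 ± 0.12 SE, limma adjusted p = 2.73e-05). For Ddit4, REDD1, a stress-induced inhibitor of mTORC1, the wild-type and Rheb1-/- stem cell arrays gave 3.55 and 3.22 and the progenitor arrays 0.25 to 1.08 (median 0.68), 6.50-fold higher in stem cells (log2 2.70 ± 0.17 SE, limma adjusted p = 6.04e-05). The signal of Sesn1, a sestrin that restrains mTORC1, was 3.77 and 3.39 on the wild-type and Rheb1-/- stem cell arrays and 1.96 to 2.45 (median 2.27) on the progenitor arrays, 2.48-fold higher in stem cells (log2 1.31 ± 0.11 SE, limma adjusted p = 0.000169). The groups did not overlap for these 3. Lamtor3 (-0.56), Lamtor4 (-1.03) and Lamtor5 (-0.44), of the same complex, were lower by less than Lamtor2, which had 1 probe, and Lamtor1 (-0.29) did not pass. Sesn3 (1.55) and the arginine sensor Castor1 (at least 3.96-fold, a bound not checked with normexp) were higher. The kinase Mtor (-0.053) and its partner Rptor (-0.079) did not pass. Of FoxO factors and targets, 10 of 24 tested members (25 listed) were higher and 8 lower in stem cells (median 0.047). There were 7 higher and 8 lower without the wild-type stem cell array, and 9 and 3 without the Rheb1-/- array. Fbxo32, the ubiquitin ligase atrogin 1, read -1.02 on the wild-type and -0.81 on the Rheb1-/- stem cell array against -3.76 to -3.30 (median -3.43) on the progenitor arrays, 5.91-fold higher in stem cells (log2 2.56 ± 0.12 SE, limma adjusted p = 2.87e-05). For S1pr1, a receptor for sphingosine 1-phosphate, the wild-type and Rheb1-/- stem cell arrays gave -0.43 and -0.19 and the progenitor arrays -4.11 to -3.23 (median -3.85), 11.2-fold higher in stem cells (log2 3.48 ± 0.23 SE, limma adjusted p = 6.91e-05). Foxo1 itself was higher by 2.0 and Cited2, a transcriptional coregulator, lower (-1.49). The share of FoxO factors and targets called lower was near that of all genes tested.

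Of ATF4 targets and amino acid supply genes, 1 of 27 tested members (28 listed) was higher and 10 lower in stem cells (median -0.29). There were 3 higher and 6 lower without the wild-type stem cell array, and 2 and 11 without the Rheb1-/- array. The signal of Trib3, a pseudokinase induced by stress, was -0.38 and -1.42 on the wild-type and Rheb1-/- stem cell arrays and -4.77 to -3.12 (median -4.06) on the progenitor arrays, 8.25-fold higher in stem cells (log2 3.04 ± 0.29 SE, limma adjusted p = 0.000253). It was the only member called higher, and the share called lower was near the 33.5% of all genes tested. Mthfd2 (-0.61) and Psph (-0.59), of one-carbon and serine metabolism, were lower. Of sterol and fatty acid synthesis genes, 8 of 30 tested members (31 listed) were higher and 9 lower in stem cells (median 0.089). There were 10 higher and 3 lower without the wild-type stem cell array, and 6 and 7 without the Rheb1-/- array. Fdps, farnesyl diphosphate synthase, read 0.99 on the wild-type and 0.83 on the Rheb1-/- stem cell array against 2.04 to 2.71 (median 2.48) on the progenitor arrays, 2.83-fold lower in stem cells (log2 -1.50 ± 0.12 SE, limma adjusted p = 0.000122). Elovl6, a fatty acid elongase, was higher by 1.21, and Scd1, a desaturase, was at least 4.42-fold higher in stem cells (fitted log2 3.42 ± 0.36 SE, limma adjusted p = 0.000367), a call lost with normexp. Sterol and fatty acid genes thus lay on both sides of 0, with shares called near the 22.4% higher and 33.5% lower of all genes tested.

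Other lists held further contrasts. Of dendritic cell and MHC class II genes, 17 of 23 tested members (24 listed) were higher and 1 lower in stem cells (medians 3.31 in wild type and 1.82 in Rheb1-/- cells). There were 15 higher and 0 lower without the wild-type stem cell array, and 19 and 0 without the Rheb1-/- array. Of members well above background on all 8 arrays 14 of 19 were higher and 1 lower, and with normexp the list median was 1.39. For H2-Ob, a chain of the peptide-editing molecule H2-O, the wild-type and Rheb1-/- stem cell arrays gave -0.56 and -0.86 and the progenitor arrays -4.73 to -3.64 (median -4.32), 11.5-fold higher in stem cells (log2 3.52 ± 0.27 SE, limma adjusted p = 0.000122). Ccr9, a chemokine receptor of lymphoid progenitors, read 0.39 on the wild-type and -0.97 on the Rheb1-/- stem cell array against -5.30 to -4.37 (median -4.89) on the progenitor arrays, 24.0-fold higher in stem cells (log2 4.59 ± 0.37 SE, limma adjusted p = 0.000143). Their stem cell values were above the progenitor range. Of stroma and endothelium genes, 9 of 16 tested members (26 listed) were higher and 1 lower in stem cells (median 1.75, over all on the array 1.35). There were 9 higher and 2 lower without the wild-type stem cell array, and 8 and 1 without the Rheb1-/- array. Here 6 of 10 were higher and 1 lower among members well above background on all 8 arrays, and the median with normexp was 0.78. The signal of Emcn, endomucin, a sialoglycoprotein of endothelium and stem cells, was 1.13 and 1.22 on the wild-type and Rheb1-/- stem cell arrays and -3.90 to -2.86 (median -3.18) on the progenitor arrays, 22.5-fold higher in stem cells (log2 4.49 ± 0.32 SE, limma adjusted p = 9.2e-05). Egfl7, a secreted factor of endothelium, read 4.15 on the wild-type and 4.10 on the Rheb1-/- stem cell array against 1.44 to 1.84 (median 1.70) on the progenitor arrays, 5.52-fold higher in stem cells (log2 2.47 ± 0.14 SE, limma adjusted p = 4.29e-05). Flt1, a VEGF receptor, was lower (-2.98).

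Of immediate early and heat shock genes, 10 of 30 tested members (32 listed) were higher and 6 lower in stem cells, against 22.4% and 33.5% of all genes tested. Their median was 0.46 (0.66 in wild type and 0.052 in Rheb1-/- cells). There were 4 higher and 8 lower without the wild-type stem cell array, and 11 and 4 without the Rheb1-/- array. For Hspa5, the chaperone BiP of the endoplasmic reticulum, the wild-type and Rheb1-/- stem cell arrays gave 6.0 and 5.94 and the progenitor arrays 7.12 to 7.36 (median 7.19), 2.36-fold lower in stem cells (log2 -1.24 ± 0.095 SE, limma adjusted p = 0.000122). Hspd1, a mitochondrial chaperone, was lower (-0.77). Of DNA methylation and Polycomb genes, 11 of 26 tested members were higher and 5 lower in stem cells (median 0.081). There were 11 higher and 4 lower without the wild-type stem cell array, and 7 and 5 without the Rheb1-/- array. Cbx7, a chromobox subunit of Polycomb complexes in stem cells, read -0.78 on the wild-type and -0.74 on the Rheb1-/- stem cell array against -2.57 to -2.20 (median -2.40) on the progenitor arrays, 3.08-fold higher in stem cells (log2 1.62 ± 0.13 SE, limma adjusted p = 0.000139). Cbx2, another such subunit, was higher by 2.25 and Hmga1, a chromatin protein, lower (-0.94). Of transporters and detoxification genes, 7 of 24 tested members (25 listed) were higher and 8 lower in stem cells (median -0.0011, and 0.43 with 11 higher and 6 lower under quantile normalization). There were 6 higher and 8 lower without the wild-type stem cell array, and 6 and 9 without the Rheb1-/- array. For Gstm1, a glutathione transferase, the wild-type and Rheb1-/- stem cell arrays gave 5.08 and 5.22 and the progenitor arrays 7.48 to 7.86 (median 7.75), 6.01-fold lower in stem cells (log2 -2.59 ± 0.11 SE, limma adjusted p = 2.62e-05). The glutathione peroxidases Gpx1 (-0.98) and Gpx3 (-2.64) were lower too, whereas Gstm1 and other glutathione transferases have close copies. The shares of transporters and detoxification genes called were not far from the 22.4% higher and 33.5% lower of all genes tested.

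Within slide 2 the wild-type stem cell array can be set against wild-type progenitor array 1 alone, which is also the estimate with slide as a fixed block. For the 6 genes named next, whose groups do not overlap, the direction is fixed by that choice and only the size is informative. There Procr differed by 3.96, Hlf by 3.37 and Dntt by 6.65, and Elane by -3.25, Prtn3 by -3.46 and Ms4a3 by -3.30. The median within the slide was 1.82 over stem cell surface genes, 1.29 over stem cell factors, 2.10 over lymphoid priming genes, 1.38 over interferon genes and -1.67 over primary granule genes, against -0.16 over all genes tested. In this fit both arms hold 1 array and the spread comes from the arrays of the other slides, so that the lone arrays are assumed to vary like them. It called 2111 of 16921 genes higher and 2232 lower. By list, 13 higher and 0 lower were called among the surface genes, 11 higher and 0 lower among the factors, 14 higher and 0 lower among lymphoid, 24 higher and 0 lower among interferon and 1 higher and 17 lower among primary granule genes. For secondary granule, macrophage and megakaryocyte genes the medians within the slide were 0.47, 2.41 and -0.37.

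**Figure D5:**
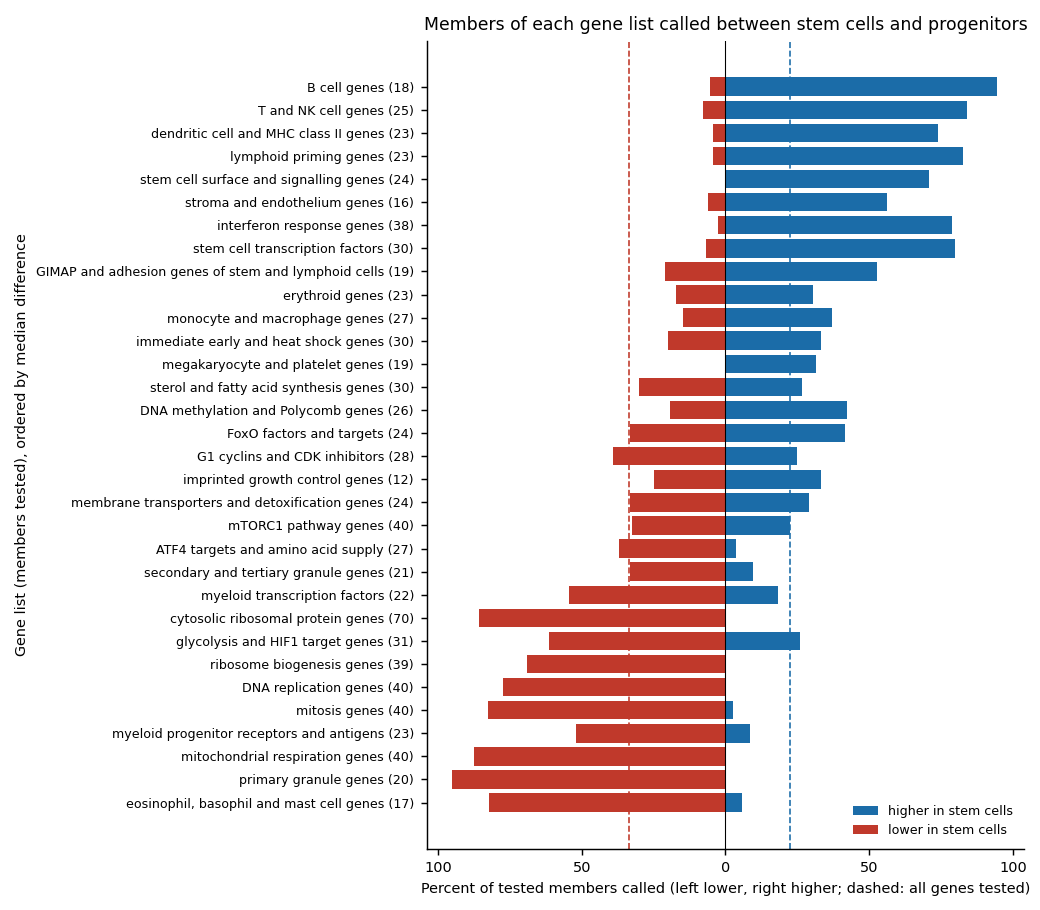
Percent of the tested members of each of the 32 gene lists called higher (right) or lower (left) in stem cells, ordered by median difference, with the shares of all genes tested, 22.4% and 33.5%, as dashed lines. B cell, T and NK cell, lymphoid, stem cell factor and interferon lists extend furthest to the right, and primary granule, respiration, ribosomal protein, mitosis and eosinophil lists furthest to the left.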

How the data were processed

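RNA of 14 samples was measured on 1-colour Agilent mouse arrays, and 8 of them are used here. Spot intensities were deposited per array and had been background-subtracted by Agilent's software before deposit, per the file headers, which name version 10.7.3.1 on all 14 arrays, whereas the submitters' processing notes name Feature Extraction 9.1. The authors' deposited value table holds log2 values, which correlated with the scanner values of the same arrays at 0.998 or higher. It was used as an alternative, and its sorted columns differ by at most 0.00234, so that each column has the same distribution with a median of 5.92.

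From the deposited intensities, log2 of the processed signal minus the array's 75th percentile was computed after leaving out control and outlier spots. Spots of a probe were averaged, and each gene is represented by 1 probe, the one of highest mean over the 8 arrays. Of 41174 probes, 27660 were named by accession and 5595 by symbol through the RefSeq table, 470 by an older symbol, and 7449 kept the array's name. A gene was tested where its probe was well above background on both stem cell arrays or on all 6 progenitor arrays. Cell type was fitted with genotype as a covariate by limma's lmFit and eBayes (R 4.3.3, limma 3.58.1, the data.table package in version 1.17.8, statmod 1.5.0), and p-values were Benjamini-Hochberg adjusted over all 16921 genes. A passing gene needed the same sign in both genotypes, which 0 passing genes lacked. The steps were tested on simulated data in which 200 of 16915 genes were changed. Of 100 differences of log2 1 the test recovered 65, and of 100 of log2 2 it recovered 78. Of 16715 unchanged genes 9 were called. Far fewer genes were changed there than were called in the data.

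Genes were named by rule: Rheb and the marker genes, the 12 largest rises and 12 largest falls with an official symbol and no overlap between groups, and up to 3 passing members of smallest p of each of 32 lists. For the largest rises and falls the lack of overlap was thus fixed by the rule, and for members of smallest p it adds little to the call. Other list members are named for their role, after their values were seen. Some genes are not reported here. The compared samples, the members and the lists were chosen with earlier results of these data known. The alternatives covered background correction, normalization, probes, filters, the model, the slide, the replicate number, the threshold and leaving out each array.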

Additional observations from a re-analysis of the deposited data

Results flagged for a closer look

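In 17 genes of the macrophage and megakaryocyte lists the stem cell array lay beyond all 3 progenitor arrays of its genotype, but upwards in 1 genotype and downwards in the other. Differences are stem cells minus progenitors on the log2 scale, from 1 stem cell array a genotype, and the difference between the genotypes was not tested. Among all 16921 genes tested 1318 (7.79%) showed such a pattern, and among 854 tested list members 61 (7.14%). In the macrophage list these were 10 of 27 tested members, and in the megakaryocyte list 7 of 19.

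These 10 macrophage genes were higher on the wild-type and lower on the Rheb1-/- stem cell array than on the progenitor arrays of their genotype. The integrin ligand Vcam1 differed by 2.18 in wild type and -2.24 in Rheb1-/- cells, the iron exporter Slc40a1 by 2.50 and -1.48, Adgre1 by 2.15 and -1.85 and the lysosomal antigen Cd68 by 2.71 and -0.11. The lysosomal proteases Ctsb and Ctsd differed by 1.44 and -1.11 and by 1.68 and -0.22. Csf1r differed by 0.88 and -0.46, the pore-forming protein Mpeg1 by 1.04 and -0.60, the galectin Lgals3 by 0.82 and -0.81 and the endotoxin coreceptor Cd14 by 0.42 and -1.59.

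Of the 7 megakaryocyte genes, 6 showed the opposite order. The integrin chain Itga2b differed by -1.18 in wild type and 1.13 in Rheb1-/- cells, the platelet receptor Treml1 by -1.38 and 1.59 and Vwf by -0.91 and 1.23. The glycoprotein Ib genes Gp1ba and Gp1bb differed by -0.67 and 1.57 and by -0.59 and 1.01, and the GTPase Rab27b by -0.48 and 1.93. Clec1b, the podoplanin receptor, ran the other way with 1.84 and -0.89.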

How the results depend on the processing

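Of the 9448 genes called (3784 higher and 5664 lower, 2380 and 1222 of them by 2-fold), fewer were called with slide as a fixed block on 8 arrays (4343, with 2111 higher and 2232 lower) or on 14 arrays (6043, with 3518 lower), with the wild-type arrays alone (6047, with 3413 lower) and with a 2-fold minimum in the test (1631, with 1178 higher and 453 lower). Genes higher by 2-fold were 1319 with normexp and 1394 among genes well above background on all 8 arrays. Leaving out 1 array gave 7997 to 9165 calls, 3011 to 3659 higher and 4342 to 5537 lower, with 2170 to 2368 higher and 1165 to 1344 lower by 2-fold. With the replicate block 6712 genes were called (2772 higher and 3940 lower). Deviations of progenitor arrays of the same number correlated at -0.00139, 0.133 and 0.0275, and those of different numbers at -0.144 to 0.103. This gave no clear sign that the numbers pair samples, but 3 arrays a genotype cannot exclude it. Of the genes shared with the 9448, 10 had the opposite direction with quantile normalization, 11 with the deposited table and 14 with all probes of a gene averaged.

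The median of ribosomal protein genes turned from -0.42 to 0.049 with quantile normalization and 0.043 with the deposited table. That of secondary granule genes (-0.40) was 0.16 with the wild-type arrays alone and 0.47 with the slide block, and -1.01 to 0.16 when 1 array was left out. That of megakaryocyte genes (0.45) was -0.16 and -0.37 under the same alternatives, and -0.16 to 1.42. That of macrophage genes (0.73) was -0.22 with the Rheb1-/- arrays alone and -0.22 to 2.32. Csf1r was -0.46 with the Rheb1-/- arrays alone and -0.46 to 0.88, and Csf3r 0.056 with the slide block. Here the cause was not tested, beyond the smaller number of arrays. With 2 stem cell arrays, 1 a genotype, their own spread cannot be told apart from genotype and slide. Signals near background limit the size of large folds.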
